A study of Hordeum vulgare with 12 samples.

Results

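The comparison described here is that of the stem base of 10DAG seedlings with the stem base of 1DAG seedlings (DAG, days after germination) in Golden Promise (GP), a cultivar of spring barley and the wild type of the study. It rests on 6 of the 12 libraries of the series, 3 at 10DAG and 3 at 1DAG, which were chosen by their labels alone. The remaining 6 libraries, 3 at each age, came from barley that carries AtCKX1, a cytokinin dehydrogenase gene of Arabidopsis, and they are used here as a second set of samples for the same contrast of ages. The labels call them an overexpressing line, and its promoter is not given in the sources used here. RNA of the excised stem base, also called crown, was sequenced after poly(A) selection, and the values are raw numbers of reads per gene. By the study's methods, 10DAG seedlings had been moved to hydroponic nutrient solution while 1DAG seedlings were still on wet filter paper, and 10DAG segments were longer than 1DAG segments, although the labels give a single segment length. Age, culture medium and segment length therefore cannot be told apart in any value below, nor can a change in the number of cells of a type be told apart from a change of RNA per cell. The methods call the 3 libraries of an age independent biological replicates.

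In cereals the permanent root system consists largely of crown roots, which start as primordia inside the stem base, grow through its outer tissues and emerge at its surface. Auxin is known to promote their initiation through LBD-type transcription factors, cytokinin acts on the same step, and ethylene is known from rice to induce death of the epidermal cells that cover an emerging root. The study set the age before primordia are visible (1DAG) against an age at which the first crown roots have broken through (10DAG).

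The libraries held between 36100002 and 51997655 gene reads at 10DAG, with a median of 40958524, and between 39647015 and 49131251 at 1DAG, with a median of 41491589, over 26073 identifiers. Reads that aligned to more than 1 place were 7.32% to 7.43% of all reads at 10DAG and 8.60% to 10.3% at 1DAG, so that the ages did not overlap, and their part in the results was not tested. No read of the transgene (AT2G41510) was found in the 6 GP libraries, against a mean of 0.468 CPM at 10DAG and 0.348 CPM at 1DAG in AtCKX1 plants. CPM is the usual scaled share of a library's gene reads that a gene takes, with libraries scaled by TMM, and it is not divided by gene length. No list of cell type markers for the stem base is paired with the identifiers, so the label of the tissue was not checked against markers.

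The replicates of an age were closer to each other than to any library of the other age, but not equally so at both ages. The SD over genes of the log2 CPM difference was 0.54, 0.53 and 0.64 for the 3 pairs of 10DAG libraries. At 1DAG it was 0.49 between replicates 2 and 3, against 0.84 between replicates 1 and 2 and 0.95 between replicates 1 and 3. Pairs made of a 10DAG and a 1DAG library lay between 1.20 and 1.58. Replicate 1 of 1DAG therefore stood apart from the other 2 libraries of its age. It was alone, that is more than 4-fold away from both other libraries of its age while these lay within 2-fold of each other, in 454 genes, 324 of them high and 130 low, whereas each of the other 5 libraries was alone in 13 to 60 genes. It had the most reads of the 1DAG libraries but the fewest genes with a read, 21370, against 21726 and 21742 in replicates 2 and 3.

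**Figure D1:**
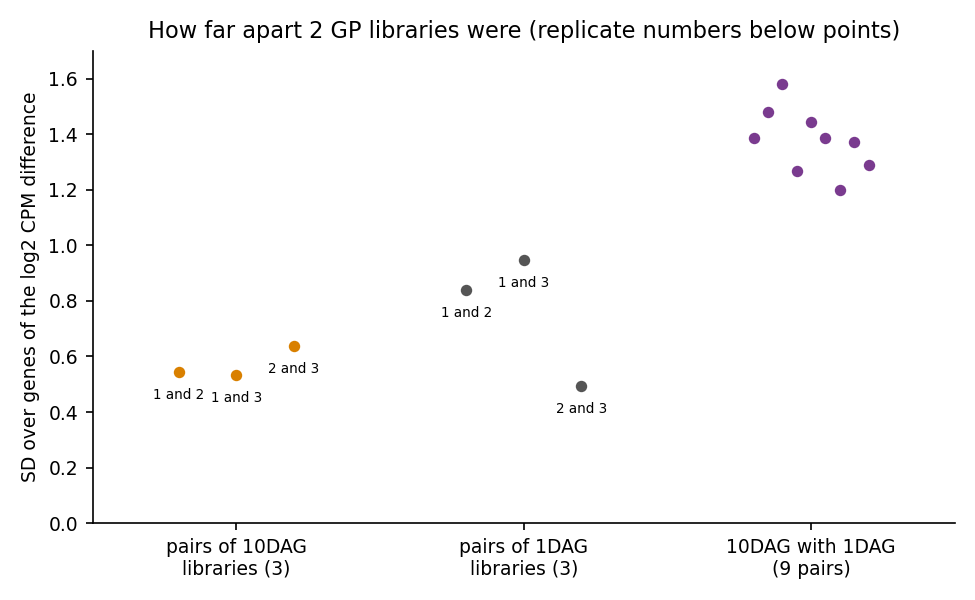
SD over all tested genes of the log2 CPM difference between 2 GP libraries, for the 3 pairs within 10DAG, the 3 pairs within 1DAG and the 9 pairs across the ages; each point is 1 pair. The pairs within 10DAG lie between 0.53 and 0.64, the 1DAG pairs that include replicate 1 at 0.84 and 0.95, and the pairs across ages between 1.20 and 1.58.

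The spread within an age depended on how abundant a gene was. The biological coefficient of variation was 0.243 at 10DAG and 0.349 at 1DAG over all tested genes. It was 0.157 at 10DAG and 0.245 at 1DAG for genes with a mean of 100 CPM or more, and 0.443 and 0.590 for those under 1 CPM. The error of a log2 fold change followed, with a median SE of 0.16 for the most abundant class and 0.58 for the least abundant. Among the genes called lower, replicate 3 of 1DAG was the 1DAG library nearest to the 10DAG level in 45.0%, and replicate 1 of 10DAG was the 10DAG library nearest to the 1DAG level in 49.4%. The same libraries were nearest in 48.2% and 48.3% of the genes called higher, so both directions shared this order of the libraries.

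Many of the genes tested differed between the ages, and the falls were nearly as many as the rises but smaller. In edgeR's quasi-likelihood test, with p adjusted by Benjamini-Hochberg and limits of 0.05 on that p and of 2-fold on the difference, 2838 genes were higher at 10DAG (14.4% of 19773 tested) and 2304 were lower (11.7%). Together this was 26.0% of the tested genes. By the adjusted p alone, 4283 genes (21.7%) rose and 4164 (21.1%) fell, so that the direction was close to balanced before the limit on size was set. The median log2 fold change over all tested genes was 0.01, and 50.3% of them were above 0. TMM scaling takes most genes as unchanged, so this balance is partly set by the scaling. A change in the total RNA of a segment could not be seen. The 3 libraries of 10DAG lay above all 3 of 1DAG in 2821 of the genes called higher and below them in 2289 of those called lower, where over all tested genes 57.4% did not overlap (27.2% above and 30.2% below). Left without replicate 1 of 1DAG, the comparison called 3111 genes higher and 2617 lower.

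**Figure D2:**
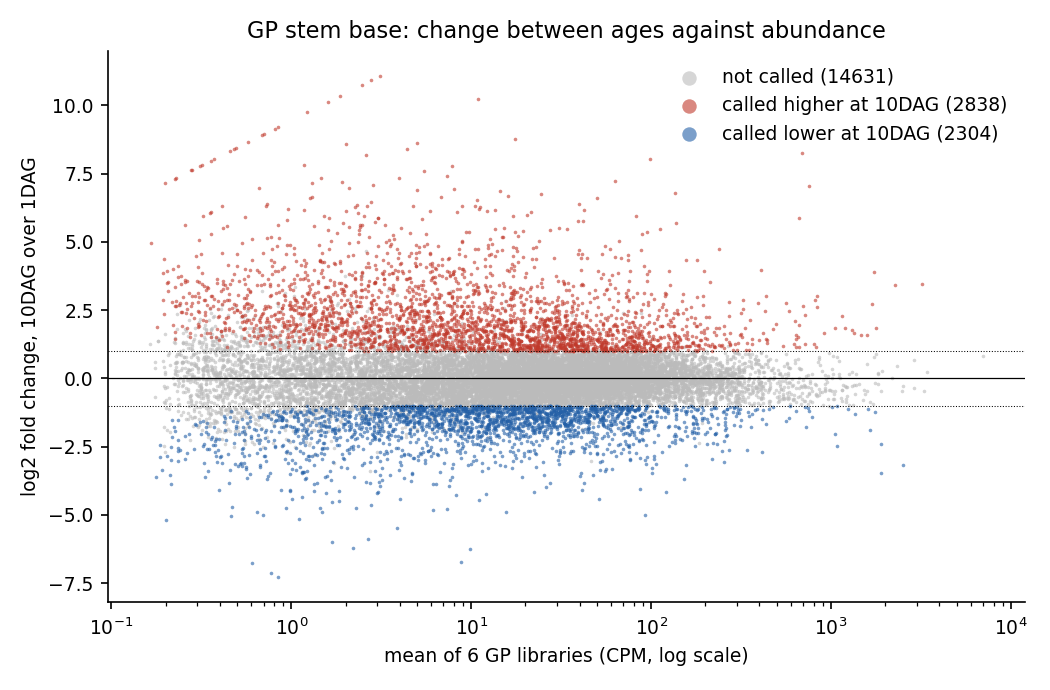
Each point is 1 of 19773 tested genes, with its mean over the 6 GP libraries in CPM on a log axis and its log2 fold change of 10DAG over 1DAG; dotted lines mark a 2-fold difference. The 2838 genes called higher reach farther from 0 than the 2304 called lower, and both occur over the whole range of abundance.

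The typical rise was 3.82-fold and the typical fall 2.96-fold (medians). Of the genes called lower, 1701 (73.8%) changed by 2-fold to 4-fold, 435 by 4-fold to 8-fold, 122 by 8-fold to 16-fold, 33 by 16-fold to 32-fold and 13 by more. Of those called higher, 1495 (52.7%) were in the class of 2-fold to 4-fold, and 707, 343, 148 and 145 in the following classes. An 8-fold change or more was thus found in 7.29% of the falling genes (168) and in 22.4% of the rising genes (636). With a mean of at least 10 CPM as well, 46 genes fell and 196 rose by 8-fold or more. The error was not larger among the falling genes, whose median SE on the log2 scale was 0.26 against 0.35 for the rising genes.

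**Figure D3:**
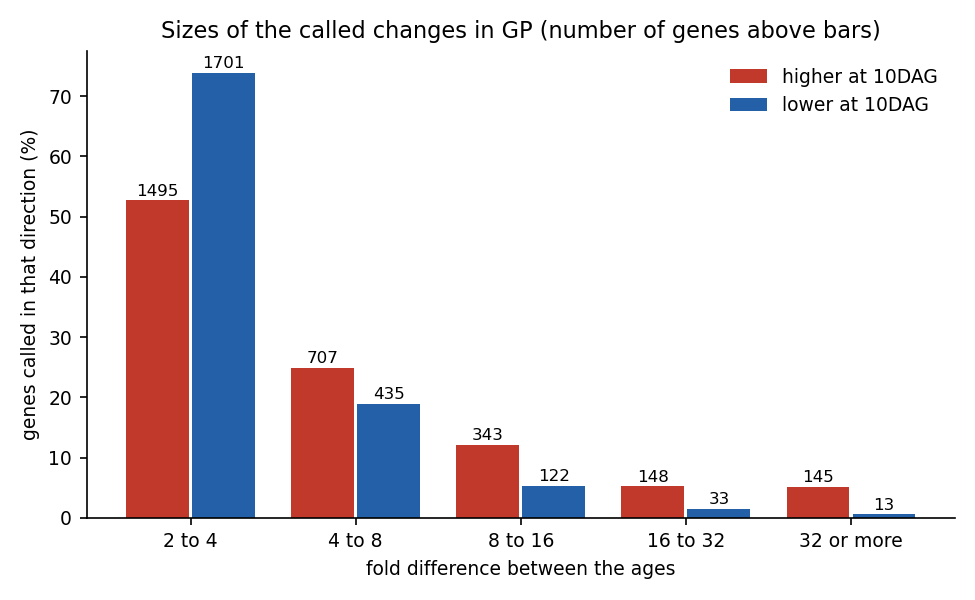
Percentage of the genes called higher (red) and lower (blue) at 10DAG in each class of fold difference, with the number of genes above each bar. The class of 2-fold to 4-fold holds 73.8% of the falls and 52.7% of the rises, and the class of 32-fold or more 13 falls and 145 rises.

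Changes of both directions were found at every level of abundance. Among genes under 1 CPM, 18.2% were called higher and 10.3% lower, and from 1 to 10 CPM 19.0% and 14.3%. Both directions were closer to each other among more abundant genes, with 11.7% higher and 11.1% lower from 10 to 100 CPM, and 10.8% and 8.25% at 100 CPM or more. The median fall was 4.79-fold in the least abundant class and 2.78-fold in the most abundant, and the median rise 6.46-fold and 2.95-fold. The excess in size of the rises over the falls was thus smallest among the abundant genes.

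The reads that moved between genes were a sizeable part of each library. Genes called higher took 17.1%, 18.9% and 20.1% of the reads in the 10DAG libraries, against 4.62%, 4.79% and 6.15% in the 1DAG libraries. Genes called lower took 5.16%, 4.55% and 4.35% of the reads at 10DAG, against 14.9%, 14.4% and 14.2% at 1DAG. These genes were chosen on the same libraries, so these shares are a description. In the AtCKX1 libraries, which had no part in the choice, the genes called higher in GP took 17.9%, 16.4% and 18.7% at 10DAG, against 5.76%, 5.35% and 5.76% at 1DAG, and those called lower 5.13%, 5.96% and 5.30% at 10DAG, against 13.9%, 14.4% and 13.1% at 1DAG.

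The gain and the loss were each carried by a small number of genes to a similar degree. The falling genes summed to 46475 CPM at 10DAG and 146898 CPM at 1DAG (means of 3 libraries), and the rising genes to 186019 CPM at 10DAG and 52454 CPM at 1DAG. The 6 genes with the largest loss made 14.7% of all loss and the 6 with the largest gain 13.5% of all gain. It took 115 genes to reach 50% of the loss and 103 to reach 50% of the gain. A fall of over 100 CPM was seen in 197 genes and a rise of that size in 250, and over 1000 CPM the numbers were 9 and 18. The 100 most abundant genes took 15.9% ± 0.70 of the reads at 10DAG and 16% ± 0.50 at 1DAG (SD, n = 3 each, exact two-sided permutation p = 0.9), and the libraries of the ages overlapped. At least 1 CPM was reached by 17714 ± 264 genes at 10DAG and 17290 ± 248 at 1DAG (exact permutation p = 0.2), and at least 0.5 CPM by 18741 ± 253 genes at 10DAG and 18352 ± 139 at 1DAG (exact permutation p = 0.1). The last is the smallest p that 3 libraries against 3 can give, so no difference could pass 0.05, and at 0.5 CPM the ages did not overlap, with 18513 to 19013 genes at 10DAG and 18232 to 18505 at 1DAG.

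Among the 6 genes that lost most reads, the first was MLOC_8169, a metallothionein, one of the small cysteine-rich proteins that bind metal ions. It had 554, 640 and 253 CPM at 10DAG, against 4645, 4006 and 4989 CPM at 1DAG. All 3 libraries of 10DAG lay far below those of 1DAG, and the log2 fold change was -3.17 ± 0.37 (SE, adjusted p = 0.00115 by edgeR's quasi-likelihood test). It is the 1 gene called lower whose identifier the sources used here pair with a function. For its lower genes as a set, the study reported mostly functions of the cell cycle, protein biosynthesis, chromatin, cytoskeleton and nucleotide metabolism. In AtCKX1 plants MLOC_8169 averaged 372 ± 28.1 CPM at 10DAG and 3911 ± 1497 CPM at 1DAG (SD, n = 3), a log2 fold change of -3.40 (adjusted p = 2.85e-05 by edgeR's quasi-likelihood test).

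The other 5 genes of the largest loss have no function in the sources used here. MLOC_46400 had 274, 193 and 471 CPM at 10DAG, against 1121, 4098 and 5285 CPM at 1DAG (log2 fold change -3.45 ± 0.62, adjusted p = 0.00513). MLOC_28169 had 672, 594 and 488 CPM at 10DAG, against 2103, 3001 and 4458 CPM at 1DAG (-2.40 ± 0.31, adjusted p = 0.00164). MLOC_27686 had 368, 327 and 262 CPM at 10DAG, against 1046, 1842 and 2592 CPM at 1DAG (-2.47 ± 0.35, adjusted p = 0.00226). In all 3 the ages did not overlap, and replicate 1 was the lowest and replicate 3 the highest of the 1DAG libraries. MLOC_56924 showed the same order at 1DAG, with 717, 546 and 796 CPM at 10DAG, against 1357, 2425 and 4047 CPM at 1DAG (-1.88 ± 0.39, adjusted p = 0.00892). MLOC_69930 was the exception, with 1139, 1098 and 826 CPM at 10DAG, against 3412, 2096 and 1967 CPM at 1DAG (-1.22 ± 0.25, adjusted p = 0.00824). Here replicate 1 was the highest of the 1DAG libraries, and the ages still did not overlap.

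**Figure D4:**
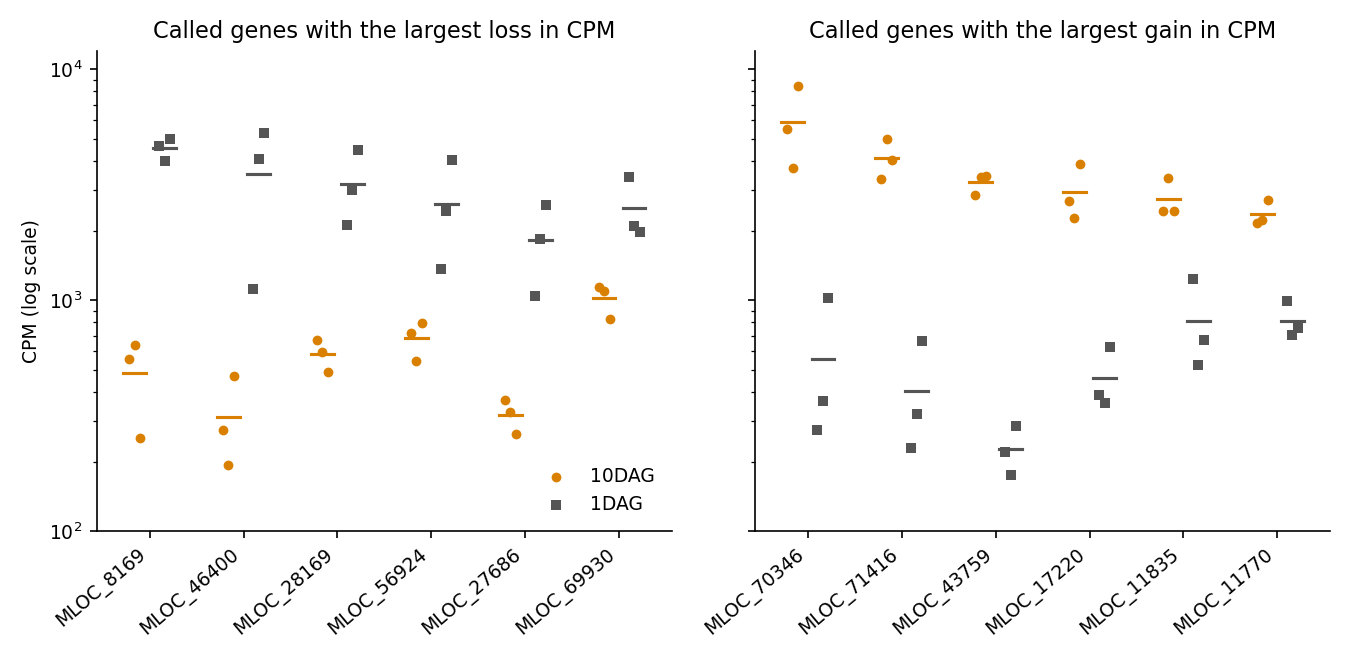
CPM on a log axis in each of the 3 libraries of 10DAG (orange circles) and 1DAG (grey squares) for the 6 called genes with the largest loss (left) and the 6 with the largest gain (right); lines are means. The ages do not overlap in any of the 12 genes, and MLOC_46400 at 1DAG has the widest spread among the falling genes, 1121 to 5285 CPM.

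The genes with the smallest p among those called lower were of middling abundance and varied little. MLOC_57719 had 9.73, 7.99 and 10.1 CPM at 10DAG, against 104, 103 and 99.1 CPM at 1DAG, a log2 fold change of -3.41 ± 0.14 (adjusted p = 0.000146). MLOC_51927 had 4.14, 4.44 and 4.69 CPM at 10DAG, against 79.1, 88.4 and 66.2 CPM at 1DAG (-4.08 ± 0.17, adjusted p = 0.000146). MLOC_45674 had 20.3, 16.6 and 18.8 CPM at 10DAG, against 186, 163 and 156 CPM at 1DAG (-3.12 ± 0.14, adjusted p = 0.000175). In these genes replicate 1 of 1DAG did not stand apart. All 3 were called lower in AtCKX1 plants as well, with log2 fold changes of -2.88, -3.51 and -2.59.

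The largest falls in fold belonged to genes of few reads at 10DAG. MLOC_43537 had 0.0747, 0.0267 and 0.0510 CPM at 10DAG, against 5.65, 3.56 and 3.78 CPM at 1DAG, 74.8-fold lower (log2 fold change -6.23 ± 0.47, adjusted p = 0.000376). MLOC_76470 had 0.299, 0.107 and 0.0255 CPM at 10DAG, against 37.2, 6.85 and 8.11 CPM at 1DAG (-6.72 ± 1.01, adjusted p = 0.0027). MLOC_76259 had 0.261, 0.134 and 0.332 CPM at 10DAG, against 5.29, 16.5 and 36.5 CPM at 1DAG (-6.26 ± 0.83, adjusted p = 0.00184). Single libraries set the size of the last 2 falls in part, since without replicate 1 of 1DAG the log2 fold change of MLOC_76470 was -5.60, without replicate 1 of 10DAG it was -7.91, and without replicate 3 of 1DAG that of MLOC_76259 was -5.42.

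Another 3 genes were near silence at 10DAG. MLOC_72999, MLOC_75450 and MLOC_25291 had 1 read each over the 3 libraries of 10DAG, against 204, 203 and 159 reads at 1DAG. The ratios of these reads were 207-fold lower for MLOC_72999 (exact 95% interval 36.7 to 8208), 206-fold for MLOC_75450 (36.5 to 8168) and 161-fold for MLOC_25291 (28.5 to 6406), intervals that cover counting error only. All 3 were called lower, with adjusted p of 0.00449, 0.00138 and 0.00237 by edgeR.

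Complete absence at 1 age was more often seen at 1DAG than at 10DAG, and rarely with many reads at the other age. There were 424 genes with 0 reads in all 3 libraries of 10DAG and at least 1 read at 1DAG, of which 395 had under 10 reads in all at 1DAG and 36 were seen in all 3 of its libraries. None of the 424 passed the filter on low counts, so none was tested. The most abundant of them at 1DAG, MLOC_42752 and MLOC_9737, had 8.31 and 4.32 CPM in replicate 1 of 1DAG and 0 in the other 5 GP libraries. MLOC_65113 was the third, with 0 at 10DAG, against 0.190, 0.484 and 0.378 CPM at 1DAG, at least 14.9-fold lower against a floor of 3 reads over the group. The opposite case, 0 reads at 1DAG, was met by 577 genes, of which 476 had under 10 reads at 10DAG and 126 were seen in all 3 of its libraries. Of these 577 genes, 23 passed the filter, which they could do through their 10DAG reads alone, so their calls are no separate result.

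The identifiers that begin with EPlHVUG, which the files do not explain, were called in 1 direction in GP. Of 1856 such identifiers 106 passed the filter on low counts, and of these 59 were lower (55.7%, where 11.7% of all tested genes were) and 0 higher. The share is thus not one of the whole group, and an identifier could pass through its 1DAG reads alone. Their median log2 fold change was -1.80, against 0.01 for all tested genes. They were of low abundance, with a median of 0.426 CPM at 10DAG and 1.61 CPM at 1DAG, and 11 of them fell by 8-fold or more. In the AtCKX1 libraries 55 of 98 tested were lower and 1 higher, where 12.7% of all tested genes were lower. All EPlHVUG identifiers together took 0.0163%, 0.0152% and 0.0280% of the reads in the 10DAG libraries of GP, against 0.0325%, 0.0777% and 0.118% in the 1DAG libraries. The 3 libraries of 1DAG thus differed among themselves by more than the 10DAG libraries did. In AtCKX1 plants these shares were 0.0277%, 0.0217% and 0.0285% at 10DAG, against 0.0296%, 0.0429% and 0.0277% at 1DAG, and there the ages overlapped.

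The genes with the largest gain included proteins of defence, detoxification and sugar metabolism. MLOC_70346, a chymotrypsin inhibitor-2 of the kind that blocks serine proteinases, had 5482, 3719 and 8427 CPM at 10DAG, against 273, 366 and 1022 CPM at 1DAG (log2 fold change 3.45 ± 0.58, adjusted p = 0.00406). Without replicate 3 of 1DAG, the highest of its age, the log2 fold change was 4.25. MLOC_17220, annotated as glutathione-S-transferase 2, an enzyme class that couples glutathione to reactive compounds, had 2694, 2264 and 3863 CPM at 10DAG, against 390, 360 and 623 CPM at 1DAG (2.73 ± 0.30, adjusted p = 0.000974). Catalase, which breaks down hydrogen peroxide, was represented by MLOC_11835 with 2434, 3392 and 2428 CPM at 10DAG, against 1234, 525 and 671 CPM at 1DAG (1.83 ± 0.33, adjusted p = 0.00536). MLOC_11770, a sucrose synthase, which cleaves sucrose for use in sink tissues, had 2155, 2231 and 2705 CPM at 10DAG, against 986, 707 and 753 CPM at 1DAG (1.59 ± 0.17, adjusted p = 0.000952). The ages did not overlap in any of these 4 genes. The remaining genes of largest gain, MLOC_71416 and MLOC_43759, have no function in the sources used here and rose by 3.41 ± 0.44 and 3.89 ± 0.23 on the log2 scale (adjusted p = 0.00161 and 0.000242).

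Some rises started from almost no reads. MLOC_74463 had 3.43, 6.47 and 6.73 CPM at 10DAG and 0 reads in the 3 libraries of 1DAG, at least 227-fold higher against the floor of 3 reads over the group. MLOC_55453 had 5.47, 4.28 and 5.00 CPM at 10DAG and 0 at 1DAG, at least 213-fold higher. MLOC_4472 had 4.57, 2.65 and 11.5 CPM at 10DAG and 0 at 1DAG, at least 261-fold higher. Replicate 3 was the highest of the 10DAG libraries in MLOC_4472 and MLOC_74463 but not in MLOC_55453. MLOC_29498 had 10.0, 18.5 and 36.5 CPM at 10DAG and 2 reads in all at 1DAG, a ratio of 1312 (exact 95% interval 363 to 10843, counting error only). Among the rises with the smallest p, MLOC_44553 had 239, 200 and 151 CPM at 10DAG, against 0.675, 0.629 and 1.06 CPM at 1DAG, a log2 fold change of 8.02 ± 0.32 (adjusted p = 0.000146 by edgeR). MLOC_14218 had 95.1, 74.4 and 76.9 CPM at 10DAG, against 1.92, 1.57 and 1.26 CPM at 1DAG (5.75 ± 0.22, adjusted p = 0.000146).

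A second metallothionein gene moved in the direction opposite to MLOC_8169, at a much lower level. MLOC_25672, annotated as a metallothionein-like protein of the plant family, had 2.33, 0.855 and 8.06 CPM at 10DAG. It had 0 reads at 1DAG, at least 156-fold higher at 10DAG. Its mean at 10DAG was 3.75 CPM, against 482 CPM for MLOC_8169. MLOC_25672 passed the filter through its 10DAG reads alone, so its call is no separate result. Replicate 3 of 10DAG was the highest library for MLOC_25672 and the lowest of its age for MLOC_8169. Both genes moved the same way in AtCKX1 plants, MLOC_25672 with a log2 fold change of 7.91 (adjusted p = 2.57e-05).

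The study assayed a set of genes linked to hormones and crown root formation by PCR, and the counts of 4 of them are described next with the primers that define the transcript concerned, each written from 5′ to 3′ in lower case as designed by the authors. No part of them is set in capitals, since no site within them is at issue.
CRL1.1 (MLOC_10784), forward: ggagacaacaacgatcaggtc
CRL1.1 (MLOC_10784), reverse: acttgcgacgcagaaacttg
PILS (MLOC_24846), forward: cgacggagtacaatggaagg
PILS (MLOC_24846), reverse: catactgacactctccaagcc
SCR-like1 (MLOC_6971), forward: gtgaacatcttggcttgtgaag
SCR-like1 (MLOC_6971), reverse: tcattctcgccctccatttc
RRB9 (MLOC_61880), forward: tcggagtttctgccaatctg
RRB9 (MLOC_61880), reverse: catcaagttttgtcacgccg

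CRL1.1, an LBD-type transcription factor whose relative in rice is required for crown root initiation, was the gene of this set with a negative fold change. It had 6.20, 8.29 and 5.71 CPM at 10DAG, against 14.4, 13.2 and 13.6 CPM at 1DAG. The ages did not overlap, and the log2 fold change was -0.97 ± 0.21 (adjusted p = 0.01 by edgeR), just short of the 2-fold limit. It passed that limit without replicate 1 of 1DAG (-1.02) and without replicate 2 of 10DAG (-1.16), and in AtCKX1 plants (-1.22, adjusted p = 0.000598).

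PILS, SCR-like1, RRB9 and Hv_CKX4 were called higher at 10DAG. PILS, of a family that carries auxin within the cell, had 6.33, 8.71 and 9.97 CPM at 10DAG, against 2.00, 1.28 and 1.81 CPM at 1DAG (log2 fold change 2.35 ± 0.29, adjusted p = 0.00141). SCR-like1, related to a transcription factor of root radial patterning, had 165, 162 and 230 CPM at 10DAG, against 63.8, 55.8 and 80.7 CPM at 1DAG (1.53 ± 0.20, adjusted p = 0.0017). RRB9, a type-B response regulator, the class that turns on genes in response to cytokinin, had 25.5, 25 and 31.9 CPM at 10DAG, against 9.78, 8.21 and 9.78 CPM at 1DAG (1.62 ± 0.17, adjusted p = 0.000773). The groups were well apart in all 3 genes. Hv_CKX4, a cytokinin dehydrogenase of barley, had 62.3, 84.7 and 41.5 CPM at 10DAG, against 18.3, 18.8 and 22.9 CPM at 1DAG (1.71 ± 0.28, adjusted p = 0.00361). The other cytokinin genes under their own names, Hv_CKX10, Hv_IPT2, Hv_IPT5 and Hv_IPT7, had too few reads to be tested.

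Several further genes that the study names lay near the 2-fold limit. ILR1, which releases auxin from its amino acid conjugates, ARGO (Argonaute) and the blue light receptor CRY2 were called higher with log2 fold changes of 1.07 ± 0.21, 1.06 ± 0.14 and 1.02 ± 0.19 (adjusted p = 0.00699, 0.00192 and 0.00613). Each fell below the limit when some single libraries were left out, to 0.94 for ILR1 without replicate 2 of 10DAG, to 0.89 for ARGO without replicate 1 of 1DAG and to 0.73 for CRY2 without replicate 3 of 10DAG. AuxIAA20, CRY1b, HADC and the ethylene receptor gene were not called at 0.76, 0.67, 0.84 and 0.90, although their adjusted p were 0.0191, 0.0103, 0.00271 and 0.00449. In each of these 7 genes the 3 libraries of 10DAG were above the 3 of 1DAG. By PCR on the same samples, the study reported ARGO and the AuxIAA gene as higher at the later age. It reported the same of the PILS, SCR-like and RRB genes described above.

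Genes of ethylene synthesis were less even among replicates. ACC synthase (MLOC_5973), which makes the precursor of ethylene, had 4.27, 16.2 and 13.1 CPM at 10DAG, against 2.38, 2.81 and 2.62 CPM at 1DAG (log2 fold change 2.16 ± 0.48, adjusted p = 0.0112). The ACC oxidase MLOC_70078, of the enzyme family that completes the synthesis, had 25.9, 51.2 and 30.2 CPM at 10DAG, against 5.31, 6.97 and 7.21 CPM at 1DAG (2.52 ± 0.31, adjusted p = 0.00141). Replicate 2 of 10DAG was the highest library in both. It also held most of the rise of a second ACC oxidase, MLOC_43526, with 35.0, 88.7 and 28.8 CPM at 10DAG, against 20.6, 20.3 and 19.2 CPM at 1DAG (1.41 ± 0.43, adjusted p = 0.0334). Without that library the log2 fold change of MLOC_43526 was 0.72 and it was not called. Leaving out any 1 of the 1DAG libraries also lost the call, with adjusted p of 0.062, 0.092 and 0.079.

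The other 2 ACC oxidase genes did not pass the test. MLOC_67637 had 8.49, 10.6 and 7.37 CPM at 10DAG, against 6.92, 1.65 and 2.52 CPM at 1DAG (adjusted p = 0.0749). MLOC_50024 had 9.87, 27.1 and 5.20 CPM at 10DAG, against 7.04, 2.32 and 1.59 CPM at 1DAG (adjusted p = 0.0683), and here the ages overlapped. Replicate 1 was the highest 1DAG library in both, and without it both were called, with log2 fold changes of 2.06 (adjusted p = 0.00252) and 2.83 (adjusted p = 0.02). A chitinase (MLOC_68184) had 285, 395 and 492 CPM at 10DAG, against 16.3, 41.4 and 46.5 CPM at 1DAG (3.54 ± 0.44, adjusted p = 0.00142), and an expansin (MLOC_74834), of a family that loosens cell walls, had 2.95, 5.08 and 2.53 CPM at 10DAG, against 0.148, 0.436 and 0 CPM at 1DAG (4.22 ± 0.96, adjusted p = 0.012). Without replicate 2 of 1DAG the log2 fold change of the expansin was 5.53.

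Functions could be given to groups of rising genes from the 1342 genes for which the study's annotation could be read. All of these had been called higher by the study on the same libraries, so a count of members that rose is a description of size and abundance and not independent evidence of direction. None of the 26 groups could therefore be expected to hold falling genes, and none had a member called lower. Genes of the same functions outside that list, falling ones included, are not counted. For each group the count in the AtCKX1 libraries is given beside that in GP. Of the 1342 genes 1294 were tested in GP and 1202 were called higher, the share to read the GP counts against. Over all tested genes 16.8% were higher in AtCKX1 and 14.4% in GP. Of all genes called higher in GP 80.3% were called higher in AtCKX1, which is only a rough guide to the AtCKX1 counts. Those counts are over the members tested in AtCKX1, whether or not they were called in GP.

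Counts in the WRKY, NAC and MYB groups were near that of the listed genes as a whole, 1202 of 1294 called higher in GP. The group found by the word WRKY, which names regulators of defence and senescence, was higher in 31 of 32 tested members in GP (median log2 fold change 2.03) and in 34 of 35 in AtCKX1 plants. It also holds a VQ motif-containing protein (MLOC_3237) and a sigma factor binding protein (MLOC_61585), which are not WRKY factors by their names. The WRKY factor with the largest rise, MLOC_5971, had 3.36, 1.68 and 9.82 CPM at 10DAG, against 0.0422, 0.121 and 0.0756 CPM at 1DAG (5.96 ± 0.85, adjusted p = 0.00225). Replicate 3 of 10DAG set much of its size, and without it the log2 fold change was 4.96. NAC factors rose in 22 of 23 members in GP and 21 of 23 in AtCKX1, and the MYB group, which includes response regulators such as MLOC_24962, in 23 of 24 and 21 of 24. The most abundant of the NAC group, MLOC_59162, had 141, 203 and 179 CPM at 10DAG, against 52.6, 38.4 and 53.3 CPM at 1DAG (1.92 ± 0.20, adjusted p = 0.000832).

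Defence and detoxification groups held some of the most abundant rising genes. Proteinase inhibitors summed to 8565, 6424 and 11788 CPM at 10DAG, against 887, 1269 and 1974 CPM at 1DAG, and 13 of 14 were higher in GP and 12 of 14 in AtCKX1 plants. The member with the smallest p, the Bowman-Birk trypsin inhibitor MLOC_39668, had 250, 228 and 227 CPM at 10DAG, against 17.9, 16.5 and 14.2 CPM at 1DAG (3.92 ± 0.14, adjusted p = 0.000146). Glutathione S-transferases summed to 3819, 4243 and 5427 CPM at 10DAG, against 923, 824 and 1201 CPM at 1DAG (21 of 23 higher in GP, 19 of 23 in AtCKX1). Most of the 10DAG sums came from a single gene each, MLOC_70346 with 5482, 3719 and 8427 CPM and MLOC_17220 with 2694, 2264 and 3863 CPM. The members had been listed as higher on these libraries, so the difference of the sums between the ages is a description. The disease resistance group had a median log2 fold change of 1.32, with 23 of 26 higher in GP and 15 of 26 in AtCKX1. Most of its members are annotated as NBS-LRR or other disease resistance proteins, of a class that senses pathogen effectors inside the cell, but it also holds receptor-like kinases (MLOC_56150, MLOC_20964 and MLOC_78967), a dirigent-like protein (MLOC_80443) and a further leucine-rich repeat protein (MLOC_61026). Without replicate 1 of 1DAG and replicate 2 of 10DAG 18 of the 26 were higher, and in a test against a 2-fold change (glmTreat) 0. Among pathogen response genes (20 of 21 higher in GP, 19 of 21 in AtCKX1), the receptor-like kinase MLOC_73481 had 17.8, 25.7 and 10.9 CPM at 10DAG, against 0.443, 0.460 and 0.479 CPM at 1DAG (5.35 ± 0.40, adjusted p = 0.000379).

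Genes of the cell wall and of its lipid barriers rose mostly at low levels. Cell wall organisation genes were higher in 33 of 35 members in GP and 29 of 35 in AtCKX1. The polygalacturonase MLOC_6444, which cuts pectin, had 1.47, 0.909 and 1.84 CPM at 10DAG and 0 reads at 1DAG, at least 60.8-fold higher. The pectinesterase MLOC_12859, which prepares pectin for such cutting, had 3.06, 3.39 and 1.73 CPM at 10DAG, against 0.190, 0.169 and 0.0504 CPM at 1DAG (4.34 ± 0.57, adjusted p = 0.00172). Both had few reads. The wall gene called higher with the most reads, the arabinofuranosidase MLOC_44256, had 689, 673 and 858 CPM at 10DAG, against 245, 346 and 414 CPM at 1DAG (1.19 ± 0.22, adjusted p = 0.00585), and was below the 2-fold limit (0.93) without replicate 1 of 1DAG. All 6 cutin and suberin genes were higher in GP and 5 of 6 in AtCKX1, among them the GDSL esterase MLOC_6294 with 20.4, 25.9 and 31.7 CPM at 10DAG, against 3.58, 2.11 and 1.86 CPM at 1DAG (3.42 ± 0.31, adjusted p = 0.000571). Expansins were higher in 5 of 6 members in GP and in 2 of 6 in AtCKX1. The genotypes were not called different in the age effect for the members MLOC_53864, MLOC_6637 and MLOC_73204 (adjusted p = 0.4, 0.802 and 0.818 by edgeR). That difference is not given here for the other members.

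Uptake and transport genes rose at moderate levels. These groups were found by annotation and are mixed. Nutrient uptake also holds enzymes such as nitrate reductase (MLOC_60358) and aspartate aminotransferase (MLOC_13742), and ubiquitin ligases such as MLOC_27855. The sugar carriers include a phosphosulfate transporter (MLOC_72730), and the amino acid carriers include auxin transporter-like proteins (MLOC_54960 and MLOC_81185). Among nutrient uptake genes (22 of 26 higher in GP, 20 of 27 in AtCKX1), the high affinity nitrate transporter MLOC_60308 had 47.0, 82.3 and 95.1 CPM at 10DAG, against 2.21, 5.35 and 2.37 CPM at 1DAG (4.55 ± 0.46, adjusted p = 0.000784). As the 10DAG seedlings were in nutrient solution, age and medium cannot be told apart here either. Sugar carriers were higher in 28 of 29 members in GP and 20 of 29 in AtCKX1, amino acid carriers in 23 of 26 and 21 of 26, potassium transporters in 8 of 8 and 5 of 8, and ABC transporters in 20 of 22 and 10 of 22. The SWEET7b sugar transporter MLOC_52477 was even at 10DAG, with 1.85, 1.82 and 1.73 CPM at 10DAG, against 0.105, 0.0968 and 0.0252 CPM at 1DAG (4.56 ± 0.52, adjusted p = 0.00106). The ABC transporter MLOC_10748 had 21.8, 54.0 and 58.5 CPM at 10DAG, against 1.33, 4.53 and 6.38 CPM at 1DAG (3.51 ± 0.64, adjusted p = 0.00528), and in AtCKX1 plants its log2 fold change was 0.69 (adjusted p of the difference 0.184).

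Of the remaining groups, that of the photosynthesis category was higher in all 12 members in GP and in 9 of 12 in AtCKX1. Besides photosystem, ferredoxin and RbcX proteins it holds, among others, 3 carbonic anhydrases, an alternative oxidase, a transketolase and a dihydrolipoyl dehydrogenase, which are not particular to green tissue, and it leaves out the photosynthesis genes that are not in the list of higher genes. The study reported photosynthesis as enriched among its genes lower at the later age, so this group does not stand for the whole category. The members of this group summed to 912, 863 and 1067 CPM at 10DAG, against 175, 174 and 288 CPM at 1DAG. This difference is a description too, as the members had been listed as higher on these libraries. The share of green tissue in the segments was not tested. Their most abundant member, a photosystem II 10 kDa polypeptide (MLOC_37052), had 581, 500 and 625 CPM at 10DAG, against 40, 56.6 and 143 CPM at 1DAG (2.88 ± 0.48, adjusted p = 0.00379). Without replicate 3 of 1DAG its log2 fold change was 3.61. Autophagy genes, which deliver cell contents for breakdown, were higher in 7 of 7 members in GP and 4 of 7 in AtCKX1. Among them Autophagy-related protein 2 (MLOC_3448) had 52.4, 46.7 and 57.6 CPM at 10DAG, against 15.3, 18.6 and 23.8 CPM at 1DAG (1.49 ± 0.20, adjusted p = 0.00176). Cytochromes P450 were higher in 11 of 11 members in GP and 10 of 11 in AtCKX1, vesicle trafficking genes in 22 of 22 and 19 of 22, and carbohydrate metabolism genes in 18 of 19 and 18 of 19. Carbohydrate metabolism, too, was reported by the study as enriched among its genes lower at 10DAG, which are not counted here.

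The age contrast was measured a second time in AtCKX1 plants, whose 6 libraries share none with the GP comparison. Of the 2304 genes lower in GP, 1730 were called lower there (75.1% of the GP calls and 69.6% of the 2486 AtCKX1 calls), where 12.7% of all tested genes were lower. Of the 2838 higher in GP, 2280 were called higher (80.3% of the GP calls and 69.3% of the 3289 AtCKX1 calls), where 16.8% of all tested genes were higher. Calls in opposite directions numbered 8 among the genes lower in GP and 3 among those higher. The sign was the same in 97.0% of the falling genes tested in both and in 99.2% of the rising genes. Large changes recurred as well, since 144 of the 168 falls and 582 of the 636 rises of 8-fold or more were called the same way in AtCKX1 plants.

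**Figure D5:**
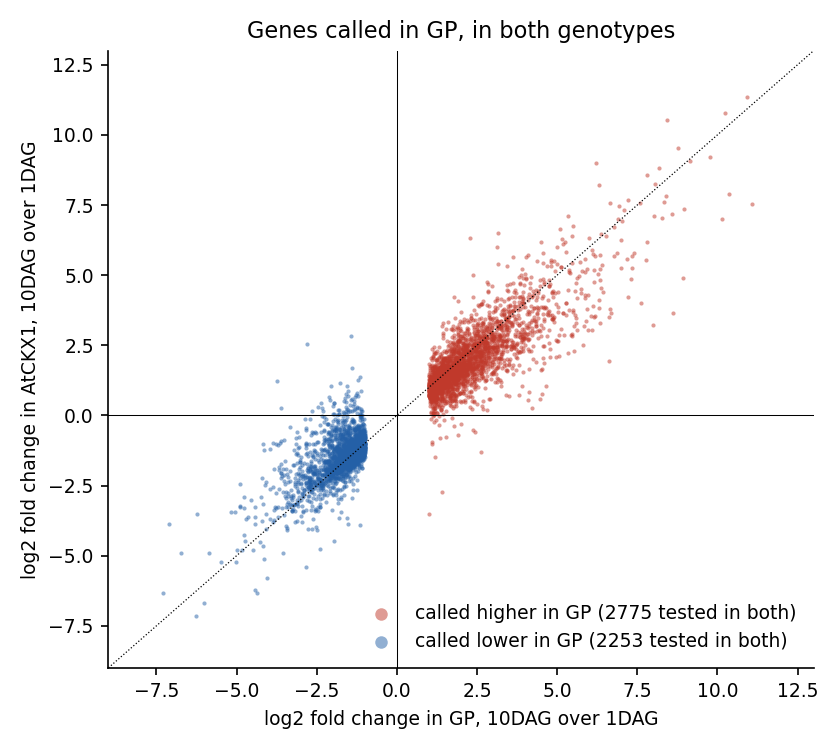
Log2 fold change of 10DAG over 1DAG in GP (horizontal) and in AtCKX1 plants (vertical) for the genes called higher (red, 2775) or lower (blue, 2253) in GP and tested in both; the dotted line marks equal change. The sign is the same in 99.2% of the red and 97.0% of the blue points.

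The size of the changes was somewhat smaller in AtCKX1 plants in both directions, with median log2 fold changes of -1.36 in AtCKX1 and -1.55 in GP for the genes lower in GP, and 1.69 and 1.91 for those higher. As the genes were selected on GP, the larger GP medians are a description. The difference of the age effects itself, tested over all 12 libraries, was called in 98 of 20212 genes (0.485%). Among the genes lower in GP the effect was called weaker in AtCKX1 for 58 and stronger for 1, and among those higher in GP weaker for 8 and stronger for 3. The GP libraries that selected these genes also enter this test, which favours weaker effects in AtCKX1, so these counts are a description as well.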

How the data were processed

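Values are the deposited raw counts per gene of 12 libraries, with no normalization by the authors. The study's methods state stranded libraries, trimming, alignment with TopHat to the cv. Morex genome and counting with HTSeq 0.6.0 (version from the submitters' processing notes). No identifier was found in the MorexV3 gene table, and positions are therefore left out. Reads outside genes and the other rows that name no gene (no_feature 23.2% to 24.4% in GP libraries) were left out.

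In R 4.3.3 with edgeR 4.0.16, the 6 GP libraries were filtered (filterByExpr), scaled by TMM and compared with edgeR's quasi-likelihood test (robust), with Benjamini-Hochberg adjusted p-values over the tested genes. Genes were called where the adjusted p did not exceed 0.05 and the change was 2-fold or more. The 6 AtCKX1 libraries were fitted likewise on their own, and the difference of age effects in all 12. CPM used TMM factors over the 12 libraries. SEs were derived from the fold change and the F value of the test, and are approximate. The method was tested on simulated counts. Replicate numbers were not used as pairs. By the study's methods seedlings of both ages came from the same germinated lot, but whether equal numbers mark the same experiment is not stated. Deviations of same-numbered libraries from their age mean correlated by 0.08, -0.31 and 0.39, and those of other pairs by -0.45 to 0.38. With so few libraries these values cannot settle whether the numbers pair the samples.

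Genes to name were, by rule, the 6 with the largest rise, fall, gain and loss, the 3 with the smallest p and the 3 most abundant with 0 reads at 1 age in each direction, the genes the study pairs with an identifier, the leading members of each functional group, and identifiers of other kinds. The text gives part of the group members. Members and groups were chosen with earlier results of these data known. Functions came from the readable part of the study's list of higher genes (1342 genes). Its list of lower genes was not used here. Alternatives were DESeq2 1.42.0, other scalings, filters, fold limits (glmTreat), all 12 libraries in the fit, and libraries left out.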

Additional observations from a re-analysis of the deposited data

Results flagged for a closer look

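The age effect of the receptor-like kinase MLOC_73481 differed between the genotypes, by -3.11 on the log2 scale in AtCKX1 minus GP (adjusted p = 0.0311 by edgeR's quasi-likelihood test over all 12 libraries). It averaged 4.50 ± 0.812 CPM at 10DAG and 0.964 ± 0.423 CPM at 1DAG in AtCKX1 plants, and 18.1 ± 7.39 CPM at 10DAG and 0.461 ± 0.018 CPM at 1DAG in GP (SD, n = 3 each). The gene was higher at 10DAG in both genotypes, with log2 fold changes of 2.21 in AtCKX1 and 5.35 in GP. Among the genes named here with a test of that difference it was the one called. Over all genes, the difference of age effects was called in 98.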

How the results depend on the processing

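By the adjusted p alone 4283 genes rose and 4164 fell, and by glmTreat, which tests against the 2-fold limit itself, 1271 rose and 830 fell, so the counts follow the limit on size. With 1 library left out in turn, 2263 to 3111 genes were higher and 1879 to 2617 lower, the most without replicate 1 of 1DAG. With replicate 1 of 1DAG and replicate 2 of 10DAG both left out, 2973 were higher and 2444 lower, of which 2499 and 2017 were among the main calls. DESeq2 called 2967 and 2486, of which 2778 and 2281 were shared. The replicate block, which treats equal replicate numbers as pairs, gave 2828 and 2200. The difference between ages in the share of the 1000 most abundant genes was -1.30 percentage points, against -0.08 for the 100 most abundant, and that in the number of genes at 10 CPM or more was -31.3, against 423 at 1 CPM. With libraries left out in turn, the difference for the 100 most abundant genes ranged from -0.48 to 0.19 percentage points and that at 1 CPM from 286 to 565 genes. Restricted to genes with a mean of 10 CPM or more, the median SD between replicates was 0.38 at 10DAG and 0.60 at 1DAG. DESeq2 called the difference of age effects in 289 genes. For the 115 named genes with a fold change, 1821 of 1923 comparisons with an alternative kept direction and call, 83 lost the call (32 of them with glmTreat), 19 gained it and 0 changed direction. The causes were not tested. With 3 libraries per age, genes of few reads have wide errors, and no exact permutation test can give a p below 0.1.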
